A study of Homo sapiens with 4 samples.

Results

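The APOBEC cytidine deaminases examined here are APOBEC3B, APOBEC3C, APOBEC3F, APOBEC3G and APOBEC1. Their members were taken by symbol, as all probe sets that the platform annotation pairs with 1 of these symbols alone, which gave 12 probe sets for 5 genes, out of 49395 probe sets and 18132 genes in all. The list was selected on earlier results of these arrays, in which log2 levels and differences between siRNAs were known, so the members' levels and differences are given as a description, with no test.

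The study transfected Caco-2 and HCT116, both established human colorectal cancer lines, with BORIS siRNA or a negative control siRNA. BORIS is the protein of CTCFL, a germline paralog of the insulator protein CTCF. Total RNA taken after 3 days was hybridised to PrimeView arrays, with 1 array for each of the 4 groups: Caco-2 with control siRNA, Caco-2 with BORIS siRNA, HCT116 with control siRNA and HCT116 with BORIS siRNA. Every group is therefore 1 sample of 1 line, the spread between cultures is unknown, and no difference between siRNAs within a line has a replicate check or a p-value. Neither the siRNA sequences nor an untransfected sample was used here.

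APOBEC proteins remove the amino group from cytosine in single-stranded DNA or RNA and leave uracil. The APOBEC3 genes form a cluster on human chromosome 22, in the order APOBEC3A, APOBEC3B, APOBEC3C, APOBEC3D, APOBEC3F, APOBEC3G and APOBEC3H, between CBX6 and CBX7, and their products restrict retroviruses and mobile elements. APOBEC3B is a nuclear enzyme known as a source of clustered C-to-T and C-to-G mutations in tumours. APOBEC1, on chromosome 12, is the enzyme that edits apolipoprotein B mRNA in the small intestine. Because the family arose by gene duplication, probe sets named _x_at or _s_at, which contain probes that can bind related transcripts, may read more than 1 member.

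The table gives a log2 value per probe set. The array medians lay between 5.46 and 5.48, and a gene is called expressed in a line if its brightest probe set was at or above the median with either siRNA. Olfactory receptor genes, silent in most tissues, gave the background level: the 95th percentile of their 368 probe sets, which was 4.80 to 5.15 over the arrays. Of 10 colorectal epithelial markers, 9 were above background in Caco-2 and 7 in HCT116. EPCAM read between 12.10 and 12.83, the enterocyte genes VIL1 and LGALS4 were above background in Caco-2 and below it in HCT116, and CDH17 was below it on all arrays. Of 11 measured lymphoid and myeloid markers, 5 were above background in Caco-2 and 3 in HCT116. The leukocyte gene PTPRC and the T cell gene CD3D lay below it on all arrays, and the lysozyme gene LYZ, also made by epithelium, read 13.26 in Caco-2 with control siRNA. The other markers above background were CD79A, at 5.90 to 6.46 over the arrays, CD68, at 5.46 to 5.96, CD74 in both lines and ITGAM in Caco-2 alone. None of 6 fibroblast markers and 2 of 4 endothelial markers were above background in either line. CTCFL itself had 7 probe sets, of which 1 was above background on any array and 0 reached an array median, so the extent of the knockdown is not known from these arrays.

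Of the 12 member probe sets, 8 were above background on at least 1 array. APOBEC3B, APOBEC3C, APOBEC3F and APOBEC3G each had a probe set above background on all 4 arrays, and APOBEC1 had none on any. At a background level set at the 99th percentile of the same olfactory receptor probe sets, APOBEC3B kept 4 arrays, APOBEC3C and APOBEC3F kept the 2 HCT116 arrays, and APOBEC3G kept 0. The distance from background thus differs widely between members, and APOBEC3G stands close to it.

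**Figure D1:**
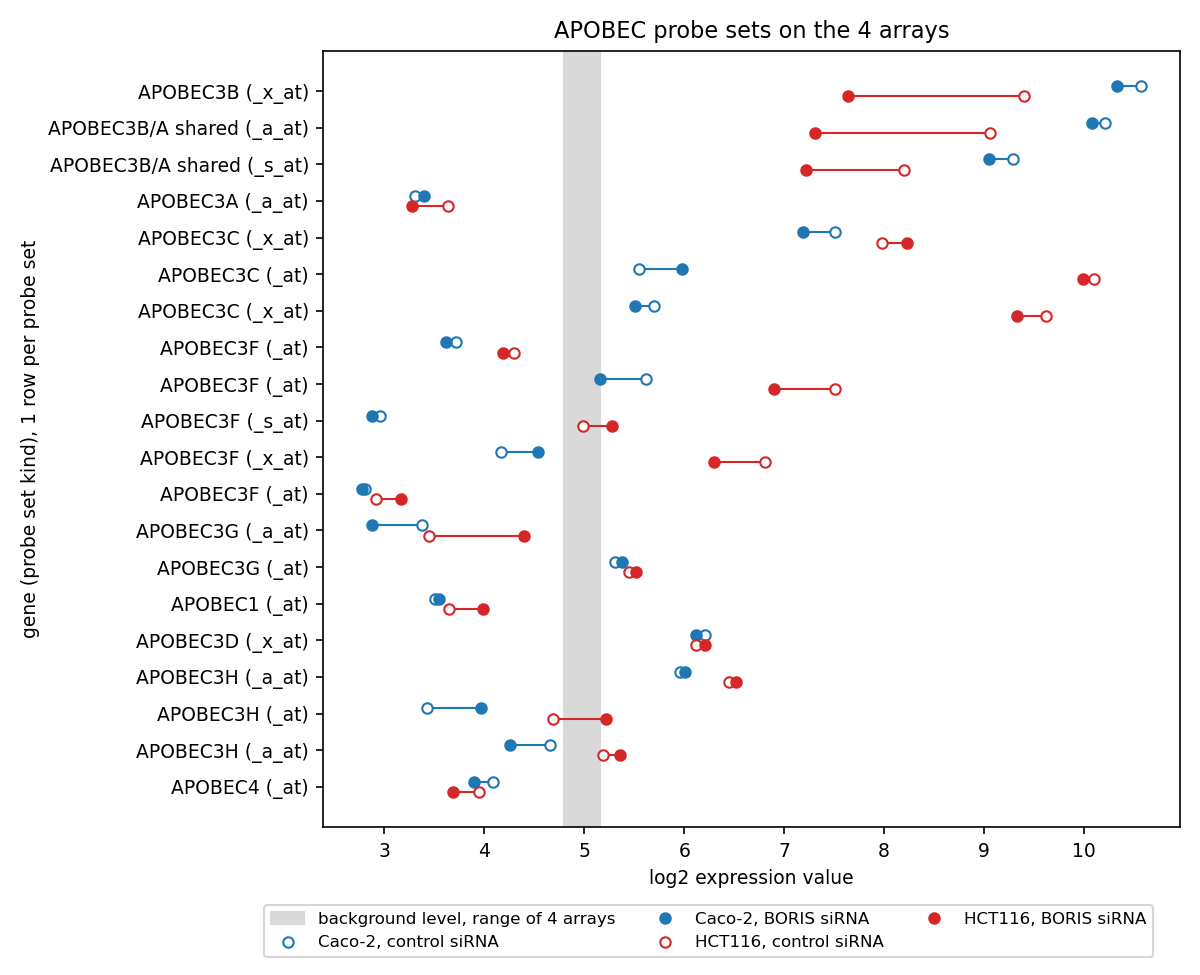
Log2 expression value (horizontal axis) of every APOBEC probe set (1 row each, with its probe set kind) on the 4 arrays. Open circles are control siRNA, filled circles BORIS siRNA, blue Caco-2 and red HCT116, and the grey band is the background level of 4.80 to 5.15. The longest red lines among the bright rows are those of APOBEC3B and of the probe sets it shares with APOBEC3A, and the APOBEC3C _at row shows the widest gap between the lines.

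APOBEC3B was the member with the largest difference between siRNAs, and that difference was in HCT116. Its probe set, of the _x_at kind, read 10.57 in Caco-2 with control siRNA, 10.33 in Caco-2 with BORIS siRNA, 9.40 in HCT116 with control siRNA and 7.64 in HCT116 with BORIS siRNA. HCT116 with BORIS siRNA was thus the lowest of the 4 arrays. The difference between BORIS and control siRNA was -1.76 in HCT116, a 3.38-fold lower value, and -0.24 in Caco-2, a 1.18-fold lower value. It was the 8th lowest of the 10631 genes expressed in HCT116, and the 1401st lowest of the 10389 expressed in Caco-2. Of the expressed genes, 1.45% were lower and 0.583% higher by 2-fold or more in HCT116, and 0.0481% lower and 0.404% higher in Caco-2. Of the 5 members, APOBEC3B was the only one past 2-fold, in HCT116. The median difference of all expressed genes was -0.048 in HCT116 and 0.003 in Caco-2.

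A pair of further probe sets is annotated to APOBEC3B together with APOBEC3A and the fused gene APOBEC3A_B. The first, of the _a_at kind, read 10.22 and 10.08 in Caco-2 and 9.06 and 7.31 in HCT116, with control and BORIS siRNA in that order, so its difference in HCT116 was -1.74. The second, of the _s_at kind, read 9.29 and 9.05 in Caco-2 and 8.20 and 7.22 in HCT116, a difference of -0.98 there and -0.23 in Caco-2. All 3 probe sets therefore had their lowest value in HCT116 with BORIS siRNA, and the smallest of the 3 differences in HCT116 was just short of 2-fold. The probe set annotated to APOBEC3A and the fused gene without APOBEC3B stood between 3.28 and 3.63 on the 4 arrays, below background on each. APOBEC3A is the closely related neighbour of APOBEC3B and is known from myeloid cells and keratinocytes.

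On the HCT116 array with BORIS siRNA the control transcripts also stood higher than on its control array. The 24 poly-A spike-in probe sets were higher by a median of 0.88, and the 18 hybridisation control probe sets by 0.39. In Caco-2 these medians were -0.08 and 0.00. Quantile normalization left the APOBEC3B difference in HCT116 at -1.70, and a loess correction on mean expression left it at -1.71. Both use all probe sets together rather than the spike-ins, so they are no check on the spike-in difference. The part of the spike-in difference in the values as deposited was not tested.

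APOBEC3C, a single-domain enzyme and one of the more broadly expressed APOBEC3 genes, differed mainly between the lines. Its brightest probe set, of the _at kind, read 5.55 with control and 5.98 with BORIS siRNA in Caco-2, and 10.10 and 9.99 in HCT116. The background levels of the Caco-2 arrays were 5.05 and 4.80. The mean of the HCT116 arrays exceeded that of the Caco-2 arrays by 4.28, or 19.5-fold, and the gap was 4.55 between the control arrays and 4.02 between the BORIS siRNA arrays.

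A second APOBEC3C probe set, of the _x_at kind, read 5.69 and 5.50 in Caco-2 and 9.62 and 9.33 in HCT116. The last, also of the _x_at kind, read 7.51 and 7.19 in Caco-2 and 7.98 and 8.23 in HCT116. The line difference was thus 3.88 with the second and 0.75 with the last, so the 3 probe sets share its direction and disagree about its size. As the mean of all 3, APOBEC3C was higher in HCT116 by 2.97. Of 11165 genes expressed in at least 1 line, 10.1% were higher in HCT116 by 2-fold or more. APOBEC3C ranked 75th from the top with the 4.28 of its brightest probe set, the largest of the 3 line differences.

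Between siRNAs, APOBEC3C showed no common direction. The difference was 0.43, -0.19 and -0.32 over the 3 probe sets in Caco-2, in the order given above, and -0.10, -0.29 and 0.25 in HCT116. With their mean, the differences were -0.03 and -0.05. No APOBEC3C probe set reached 2-fold between siRNAs in either line.

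APOBEC3F, a virion-packaged restriction factor of HIV that lacks Vif, was also higher in HCT116. Its brightest probe set, of the _at kind, read 5.62 and 5.15 in Caco-2 with control and BORIS siRNA, and 7.51 and 6.90 in HCT116. The mean of the HCT116 arrays exceeded that of the Caco-2 arrays by 1.82, or 3.54-fold. This ranked 444th from the top of 11165 genes, of which 10.1% were higher in HCT116 by 2-fold or more. In each line the array with BORIS siRNA was the lower one. That difference was -0.46 in Caco-2 and -0.61 in HCT116, a 1.52-fold lower value.

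The other 4 APOBEC3F probe sets were dimmer and did not all follow it. The _x_at probe set was below background in Caco-2, at 4.17 and 4.54, and read 6.81 and 6.30 in HCT116, a difference between siRNAs of -0.51 and a line difference of at least 1.64 against background. The _s_at probe set crossed background on 1 array, HCT116 with BORIS siRNA, at 5.28. The remaining pair of _at probe sets stayed below background on all 4 arrays. As a mean over the 5 probe sets, of which these were mostly at background, APOBEC3F stood at -0.06 in Caco-2 and -0.14 in HCT116.

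APOBEC3G, the best known restriction factor of Vif-deficient HIV and abundant in lymphocytes, was near background. Its brighter probe set read 5.31 and 5.38 in Caco-2 and 5.45 and 5.51 in HCT116, and the means of the lines differed by 0.14. The difference between siRNAs was 0.064 in each line. Its second probe set was below background on all arrays, between 2.87 and 4.39, and has no fold. At levels this close to background a difference in APOBEC3G may not be detectable on these arrays.

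APOBEC1 was represented by 1 probe set, which read 3.50 and 3.54 in Caco-2 and 3.65 and 3.98 in HCT116. All 4 values were below background, so no fold is given. Its substrate APOB and its cofactor A1CF were below background on all 4 arrays too, at 3.12 to 3.31 and 3.66 to 4.16. Of its 7 measured neighbours on chromosome 12, among them the pluripotency gene NANOG and the germline growth factor gene GDF3, 0 counted as expressed in either line.

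On the brightest probe set of each gene, the order of the arrays was not shared by the expressed members. APOBEC3B was highest in Caco-2 with control siRNA and lowest in HCT116 with BORIS siRNA. APOBEC3C and APOBEC3F were both highest in HCT116 with control siRNA, APOBEC3C was lowest in Caco-2 with control siRNA, and APOBEC3F was lowest in Caco-2 with BORIS siRNA. The other APOBEC3C probe sets were also lowest in Caco-2 with BORIS siRNA, and the last of them was highest in HCT116 with BORIS siRNA. With 1 array per group, neighbours in these orders cannot be separated from the spread between cultures.

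**Figure D2:**
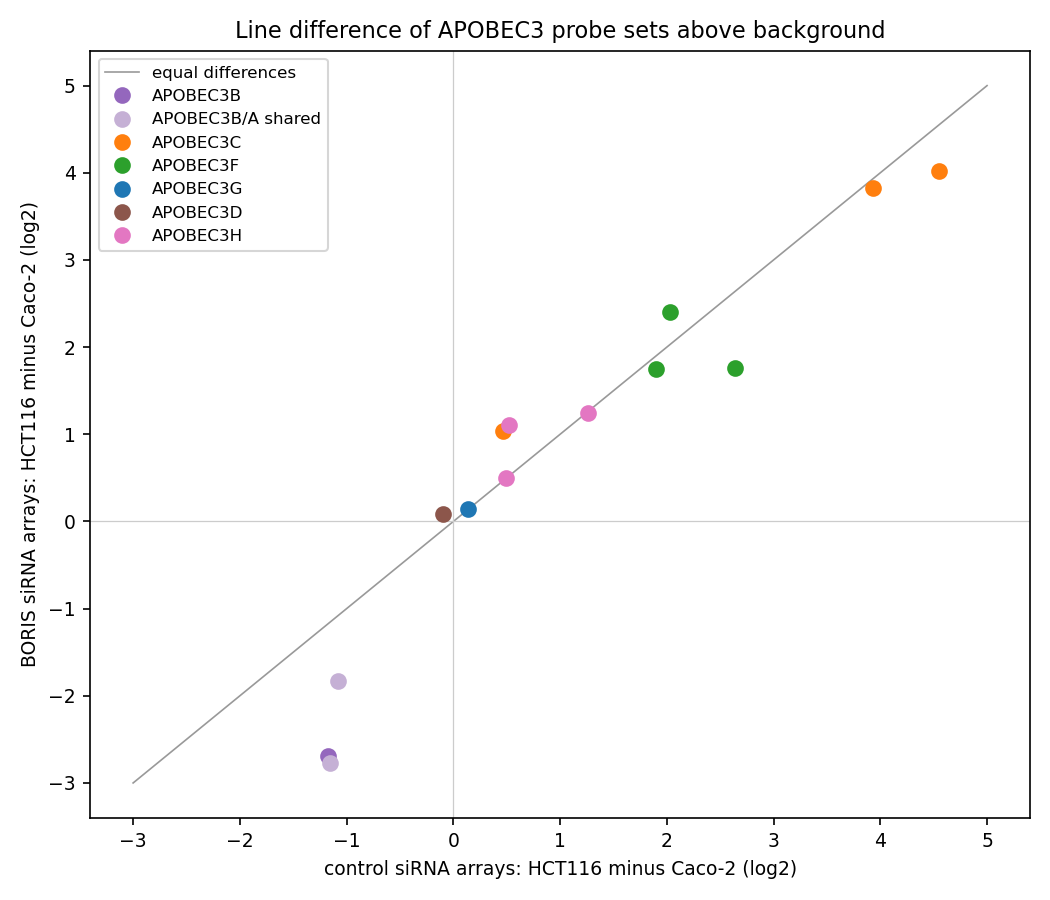
Log2 difference between HCT116 and Caco-2 on the control siRNA arrays (horizontal) and on the BORIS siRNA arrays (vertical) for each APOBEC3 probe set above background on at least 1 array. APOBEC3C and APOBEC3F lie above 0 on both axes, while APOBEC3B and the probe sets it shares with APOBEC3A lie below 0 and under the line of equal differences, at -1.17 and -2.69 for APOBEC3B. Values below background are plotted as read, as in Caco-2 for the APOBEC3F _x_at and _s_at points and the dimmer APOBEC3H points. Against background, the mean line difference is at least 1.64 for the APOBEC3F _x_at point and 0.26 for the _s_at point.

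Between the lines, APOBEC3B went the other way from APOBEC3C and APOBEC3F. HCT116 minus Caco-2 was -1.17 on the control siRNA arrays and -2.69 on the BORIS siRNA arrays. The mean of both was -1.93, where 10.4% of expressed genes were lower in HCT116 by 2-fold or more. The gap between the lines was therefore wider with BORIS siRNA, and the siRNA difference in HCT116 minus that in Caco-2 was -1.52. For APOBEC3F the corresponding gaps were 1.90 and 1.75.

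Of the other family genes, APOBEC3D, APOBEC3H and APOBEC4 had a probe set of their own, and APOBEC2 and APOBEC3A did not. APOBEC3D, a lesser restriction factor, read between 6.11 and 6.21 on all 4 arrays, with differences of -0.09 in Caco-2 and 0.09 in HCT116. Its 1 probe set is of the _x_at kind and may read other members too. The brightest APOBEC3H probe set read 5.95 and 6.01 in Caco-2 and 6.45 and 6.51 in HCT116, so the difference between siRNAs was 0.06 in each line. APOBEC4 was below background on all arrays. APOBEC3D and APOBEC3H, which lie in the same cluster as APOBEC3B, thus stood within 0.09 of 0 in both lines on their brightest probe sets. The dimmer APOBEC3H probe sets were below background in Caco-2, and in HCT116 they were higher with BORIS siRNA, 1 by 0.17 and 1, at background with control siRNA, by at least 0.12.

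The genes that flank the APOBEC3 cluster were listed for comparison. In HCT116, all 8 were expressed. On their brightest probe sets 6 were lower and 2 higher with BORIS siRNA, where 55.4% of all expressed genes were lower. On these probe sets 0 reached 2-fold, and the median was -0.07. PDGFB, a growth factor gene beyond CBX7, was the lowest by this measure at -0.63. SYNGR1 stood at -0.32, but its 4 probe sets above background disagreed, from -1.15, past 2-fold lower, to 0.30. MGAT3 stood at 0.47, and CBX6 and CBX7, the Polycomb genes on either side, at -0.09 and -0.05. In Caco-2 the median of the 7 expressed ones was 0.005, and it was below 0 after quantile normalization.

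**Figure D3:**
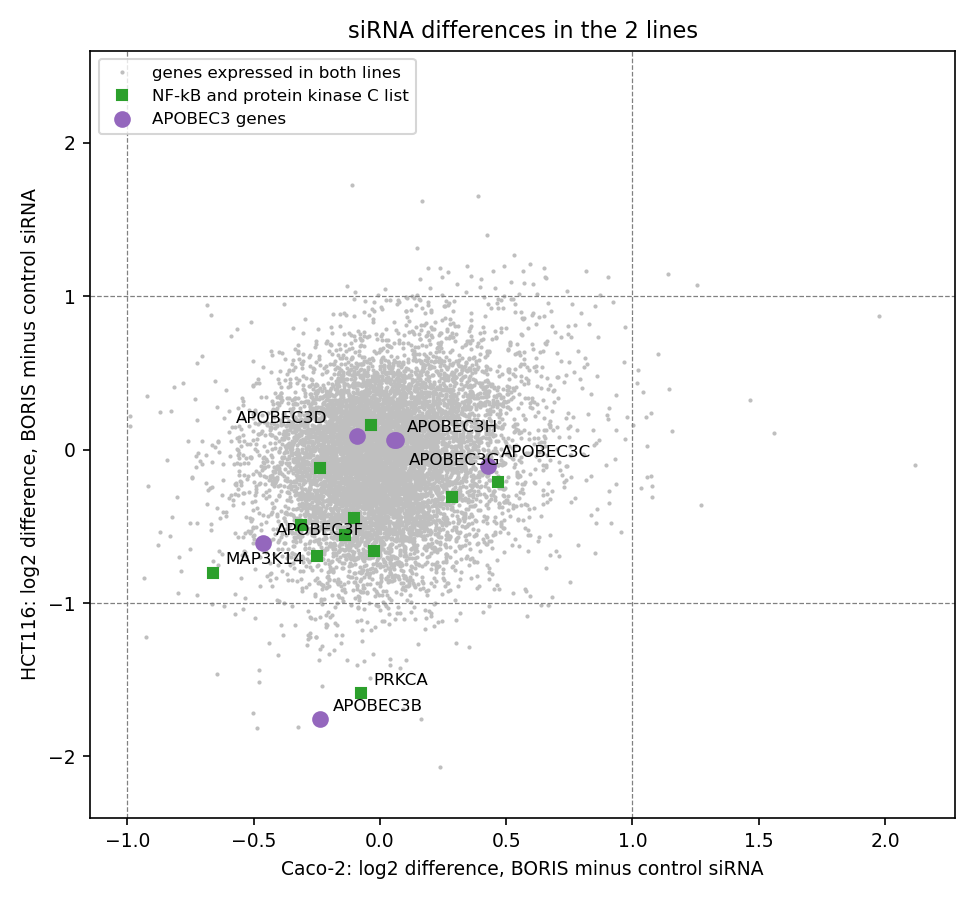
Log2 difference between BORIS and control siRNA in Caco-2 (horizontal) and HCT116 (vertical) for genes expressed in both lines (grey), with the APOBEC3 genes in purple, APOBEC3G among them although it is called expressed in HCT116 alone, and the NF-kB and protein kinase C list in green. Dashed lines mark 2-fold. APOBEC3B at -1.76 and PRKCA at -1.59 lie below the lower dashed line in HCT116 and near 0 in Caco-2.

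APOBEC3B transcription is known to respond to protein kinase C acting through non-canonical NF-kB, and to the DREAM and B-MYB complexes that time cell cycle genes. In the list of NF-kB and protein kinase C genes, 12 of 13 expressed genes were lower with BORIS siRNA in HCT116 on their brightest probe sets. The median was -0.49, where 55.4% of all expressed genes were lower. PRKCA and TNFAIP3 were lower by 2-fold or more on those probe sets, against 1.45% of all expressed genes. In Caco-2, 10 of 12 were lower with a median of -0.09, and 0 reached 2-fold, where 49.4% of all expressed genes were lower. The list was drawn up with results of these arrays known, so these counts are a description.

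PRKCA, the gene of protein kinase C alpha, read 8.04 and 7.97 in Caco-2 with control and BORIS siRNA and 8.55 and 6.96 in HCT116. Its difference in HCT116 was -1.59 on the brightest probe set and -0.50 on the other one above background. HCT116 with BORIS siRNA was the lowest of the 4 arrays, as for APOBEC3B. RELB, the DNA-binding partner in non-canonical NF-kB, read 6.67 and 6.42 in Caco-2 and 7.49 and 6.80 in HCT116, a difference of -0.69 there.

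MAP3K14, the kinase NIK that starts this branch, was lower in both lines, at -0.66 in Caco-2 and -0.80 in HCT116. It read 6.05 and 6.19 with control siRNA, and the same value of 5.39 on both BORIS siRNA arrays. That value is close to their background of 4.80 and 5.15, and 1 of its 2 probe sets was above background in each line. NFKB2, the precursor substrate of MAP3K14, stood at -0.24 and -0.12. TNFAIP3, a feedback inhibitor and target of canonical NF-kB, differed by -1.11 in HCT116 on its brightest probe set. That probe set read 5.39 with BORIS siRNA, close to the background of 5.15, and the other one above background differed by -0.57. NFKBIA, another target, differed by -0.56. The list thus holds regulators and targets of both branches. On the brightest probe sets CHUK was its 1 expressed gene that was higher in HCT116, by 0.16. Of the probe sets above background there, 2 of 3 were higher for TRAF3, 1 of 2 for REL and 1 of 5 for IKBKB. Those of the remaining expressed genes of the list were all lower.

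Genes of the DREAM and B-MYB complexes showed no common direction in HCT116. There 5 of 10 expressed genes were lower, where 55.4% of all expressed genes were lower. The median was -0.002, which was 0.01 after quantile normalization. MYBL2, which encodes B-MYB, read 8.59 and 8.74 in Caco-2 and 7.75 and 7.78 in HCT116, so it differed by 0.15 and 0.03. FOXM1, the partner factor of mitotic genes, stood at -0.01 and -0.68, LIN9 at 0.47 and 0.48, LIN54, a DNA-binding subunit, at 0.05 and -0.40, and RBL2, a pocket protein, at 0.34 and 0.37. Of 14 mitotic targets of this complex, 10 were lower in HCT116 and 8 in Caco-2, with medians of -0.11 and -0.08 and 0 past 2-fold. Of all expressed genes, 55.4% and 49.4% were lower. Among the mitotic targets, the kinesin gene KIF20A stood at -0.65 in HCT116, CDC20 at -0.63, CENPE at 0.71 and TOP2A at 0.39.

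Interferon-stimulated genes were listed because APOBEC3 genes such as APOBEC3F and APOBEC3G respond to interferon. In Caco-2, 11 of 18 expressed genes were lower with BORIS siRNA, with a median of -0.22 (0.01 without the _x_at and _s_at kinds). In HCT116, 11 of 19 were lower, with a median of -0.12. Of all expressed genes, 49.4% were lower in Caco-2 and 55.4% in HCT116. OASL stood at -0.82 and -0.44, ISG20 at -0.55 and -0.69, and IFIT1 at -0.30 and 0.76. IFITM1, a membrane protein that blocks viral entry, stood at -0.79 on its brightest probe set in HCT116 and at -1.06 on another above background, and in Caco-2 it is not called expressed. No gene of the list reached 2-fold on its brightest probe set in either line. Of 10 measured restriction factors of viruses and mobile elements, 8 were expressed in HCT116 and 5 of these were lower, with a median of -0.32, which was -0.06 without a filter on dim probe sets. The antiviral zinc finger gene ZC3HAV1 stood at -0.80, ADAR at -0.59, the helicase gene MOV10 at -0.56 and MORC2 at -0.49. In Caco-2, 3 of 9 were lower, with a median of 0.05, or -0.0008 after quantile normalization. Over all expressed genes, 55.4% were lower in HCT116 and 49.4% in Caco-2.

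Among other deaminases, 7 of 8 expressed genes were lower in HCT116 and 5 of 7 in Caco-2, with medians of -0.18 and -0.08 and 0 past 2-fold, where 55.4% and 49.4% of all expressed genes were lower. The HCT116 median was -0.08 without a filter on dim probe sets, and the Caco-2 median was -0.15 without the _x_at and _s_at kinds and -0.03 with averaged probe sets. ADAR, the adenosine deaminase that edits double-stranded RNA, read 11.09 and 11.01 in Caco-2 and 11.21 and 10.62 in HCT116, and all 6 of its probe sets were lower in HCT116. CDA, the cytidine deaminase of nucleoside salvage, stood at -0.59 in HCT116, and in Caco-2, where it was below background with control siRNA, it was higher by at least 0.49. CDADC1 stood at -0.30 in each line, and ADAD2 at -0.15 in Caco-2 and 0.30 in HCT116.

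Uracil left in DNA is removed by glycosylases and repaired through abasic sites. All 16 measured genes of this pathway were expressed in both lines. In HCT116 9 were lower and in Caco-2 7, where 55.4% and 49.4% of all expressed genes were lower. The medians were -0.07, or 0.004 after quantile normalization, and 0.04. UNG, the main uracil-DNA glycosylase, stood at -0.07 in Caco-2 and -0.19 in HCT116. TDG, the thymine-DNA glycosylase, was higher by 0.53 and 0.49, and both of its probe sets above background were higher in each line. PARP1 stood at 0.06 and -0.54, the ligase gene LIG3 at -0.01 and -0.50, and the gap-filling polymerase gene POLB at 0.06 and 0.49.

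Of 8 listed cofactors of APOBEC1 editing, 6 were expressed in both lines, and A1CF and CELF2 were below background on all arrays. RBM47, an essential cofactor, read 10.14 and 10.20 in Caco-2 and 8.41 and 8.01 in HCT116, and all 3 of its probe sets above background in HCT116 were lower with BORIS siRNA. SYNCRIP stood at 0.04 in Caco-2 and 0.32 in HCT116. Of the other listed cofactors, HNRNPAB, KHSRP, DNAJB11 and BAG4 lay between -0.01 and 0.07 in Caco-2 and between -0.24 and 0.03 in HCT116.

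**Figure D4:**
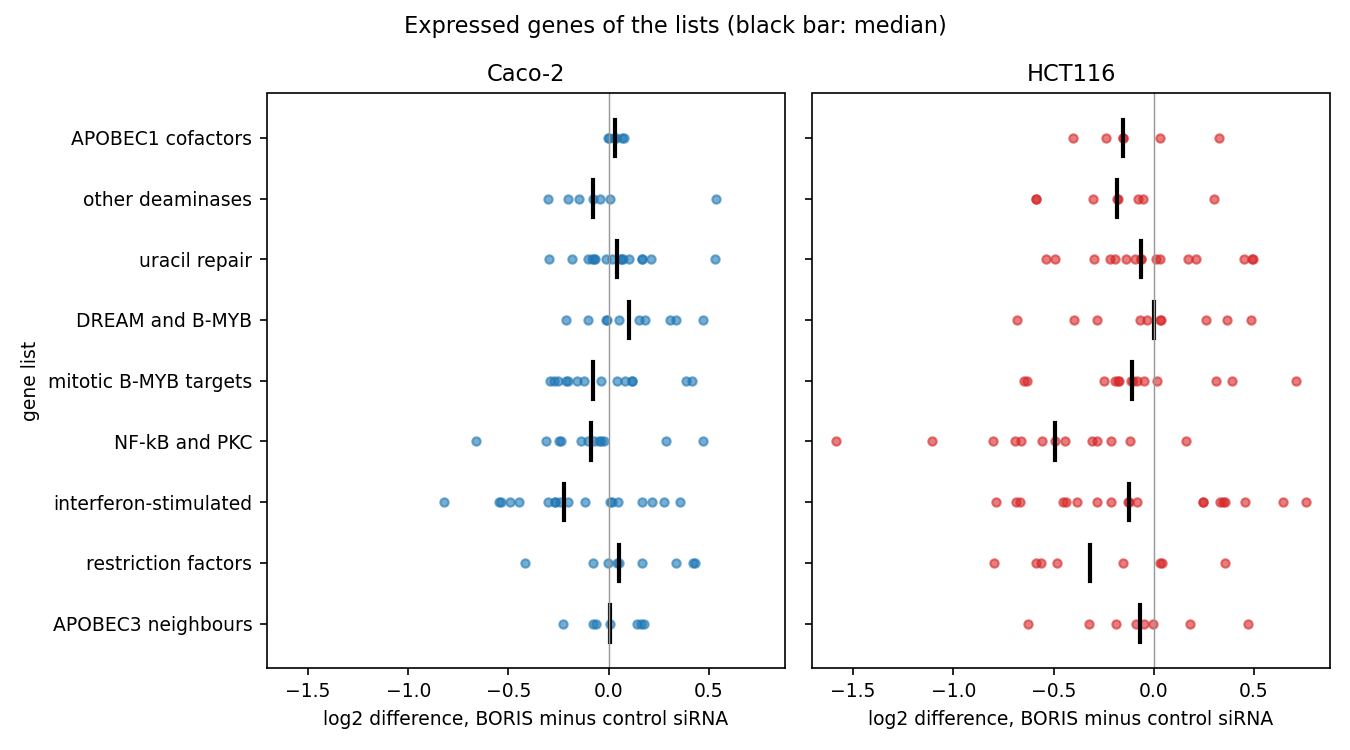
Log2 difference between BORIS and control siRNA (horizontal axis) of the expressed genes of each list (rows) in Caco-2 (left) and HCT116 (right), with 1 point per gene and the median as a black bar. The NF-kB and protein kinase C row in HCT116 has its median at -0.49, and the medians of the other rows lie between -0.32 and 0.10 over both lines.

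An effect of BORIS siRNA common to both lines was tested over all genes with limma, with cell line as a block. Of 11165 genes, 0 passed a Benjamini-Hochberg adjusted p under 0.05 (0% in each direction), and the smallest adjusted p was 0.77. An unadjusted p under 0.05 was found for 670 genes, where 558 would be expected by chance. No gene of the lists above passed. The fit has 1 residual degree of freedom and takes the disagreement between the lines as its spread. The same test called 47 genes higher and 39 lower on quantile-normalized values, and 62 and 50 on loess-corrected ones.

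The same fit gave the line difference, which 19.4% of genes passed as higher in HCT116 and 19.8% as lower. Interferon-stimulated genes passed in 10 of 21 cases as higher and 5 as lower, with HERC5, below background in Caco-2, higher by at least 2.35, and BST2, which tethers virions, bounded at -3.59 against the HCT116 background. Of the 16 repair genes, 4 were higher and 5 lower in HCT116, the deamination-directed glycosylase gene MBD4 by -1.57 and UNG by -0.78. Among 6 tested APOBEC1 cofactors, 1 was higher and 4 were lower, RBM47 by -1.96. CDA was higher in HCT116 by at least 2.40. Of the 10 tested DREAM and B-MYB genes, 1 was higher and 5 were lower, MYBL2 by -0.90. All of these passed at an adjusted p under 0.05 in limma with siRNA as the block.

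The genes whose 4-array pattern lay closest to a member were found by the Euclidean distance between log2 profiles, each centred on its own mean, over 4 arrays. For APOBEC3B these were the sterol transporter gene ABCG1 at a distance of 0.30, the semaphorin receptor gene PLXND1 at 0.30, AFAP1L2, MAML3 and NUDT16. PLXND1 read 7.81 and 7.77 in Caco-2 and 6.78 and 5.30 in HCT116. Like APOBEC3B it was lowest in HCT116 with BORIS siRNA, which follows from its choice by distance. For APOBEC3C the closest were the galectin gene LGALS1, MXRA7 and KIF26A, for APOBEC3F SHOX2, PTPRU and NUMBL, and for APOBEC3G HMGN1, PARP6 and DHX29. All of these likenesses rest on 4 points that share arrays and normalization. Of the 5 genes near APOBEC3B, PLXND1 was the 1 above background on every array: ABCG1, AFAP1L2, MAML3 and NUDT16 were below it in HCT116 with BORIS siRNA, so their distances rest in part on values at background. KIF26A and SHOX2 were below background on both Caco-2 arrays and PTPRU on 1.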

How the data were processed

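The authors deposited 1 log2 value for each probe set on 4 PrimeView arrays; the unit was read from their range of 2.13 to 14.17. Per the labels' protocols, RNA was extracted with TRIzol and labelled with biotin for the array. How the authors corrected background, normalized and summarised is not given in the sources used here. Raw array scans were not analysed.

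Probe sets were named through the platform annotation: 44988 were paired with 1 gene and 1832 with several. Symbols were checked by Entrez ID in a RefSeq table, which changed 0. A gene was its brightest probe set by the mean of 4 arrays. Differences are BORIS minus control siRNA. Values below background gave lower bounds against it. All genes were fitted with limma 3.58.1 in R 4.3.3 (trend, cell line and siRNA as terms), after a check on simulated data. Loess used a fraction of 0.4. Members and lists were chosen with earlier results of these data known. Genes were named by rule: all members, family genes and cofactors, 4 genes per other list with the largest difference, and nearest profiles (5 for APOBEC3B, 3 otherwise); UNG, MYBL2, NFKB2, NFKBIA, CHUK, CBX6, NANOG, GDF3, HERC5, BST2 and MBD4 were added after their values were seen or for their role. The number of arrays limits the precision.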

Additional observations from a re-analysis of the deposited data

Results flagged for a closer look

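The brightest APOBEC3C probe set differed by 0.43 between BORIS and control siRNA in Caco-2 and by -0.10 in HCT116, opposite directions in the 2 lines. The difference between the lines was not tested. The other APOBEC3C probe sets stood at -0.32 and -0.19 in Caco-2 and at 0.25 and -0.29 in HCT116.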

How the results depend on the processing

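The member differences were recomputed under quantile normalization, a loess correction, 16 added on the linear scale, averaging a gene's probe sets and leaving out _x_at and _s_at probe sets, and the difference of APOBEC3B in HCT116, the 1 past 2-fold, kept its sign wherever it had a value. With probe sets averaged, the siRNA difference in Caco-2 turned to -0.03 for APOBEC3C and to -0.22 for APOBEC3G. In HCT116 the averaged APOBEC3G difference was 0.50, against 0.06 as reported. The APOBEC3G average includes the probe set that was below background on all arrays. APOBEC3B, whose 1 own probe set is of the _x_at kind, has no value when the _x_at and _s_at kinds are left out. Averaging could not change it either, as it has 1 probe set to average. In the _s_at probe set shared with APOBEC3A, an alternative chosen after seeing the data, the APOBEC3B difference in HCT116 was -0.98. The APOBEC3C line difference was 2.97 when its probe sets were averaged. Of 20 list medians, 8 turned sign under at least 1 setting. Genes at 2-fold or more in Caco-2 numbered 9 lower (5 as reported) without a filter and 22 higher (42) with means of probe sets. In HCT116 they numbered 55 lower (154) and 39 higher (62) with means of probe sets, and 98 higher after quantile normalization. The test of a shared effect called 47 genes higher and 39 lower after quantile normalization and 62 and 50 after the loess correction, against 0 as deposited. The cause of these shifts was not tested. The labels give no replicate numbers, and the test of a shared effect already pairs the arrays of a line. Leaving out an array from it leaves no residual degree of freedom. Levels within the range of olfactory receptor probe sets, as for APOBEC1, carry no fold.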

Other observations

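The difference between siRNAs of APOBEC3G was the same in both lines to within 0.0001, and that of APOBEC3D was the same in size with the opposite sign to within 0.0001. Over all 18132 genes, 41 had equal differences in the 2 lines to within 0.0001, whereas 5 were apart by 0.0001 to 0.0002 and 2 by 0.0002 to 0.0003. Opposite differences of equal size numbered 49, 2 and 4 in the same steps. For a gene with equal differences in both lines the residual spread of the limma fit is near 0. The cause of these equalities was not tested.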
